A study of Homo sapiens with 4 samples.

Results

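The 10 genes described here encode the D-type cyclins (CCND1, CCND2, CCND3), their kinases CDK4 and CDK6, CDK inhibitors (CDKN2A, CDKN2B, CDKN2C and CDKN1B), and MTAP, the neighbour of CDKN2A and CDKN2B on chromosome band 9p21. They were chosen by name, with earlier results of these data known. All 10 were found by symbol among the 58884 genes of the deposited expression table. RNA had been sequenced from the thyroid cancer lines FTC-133, of a follicular carcinoma, and 8505C, of an anaplastic carcinoma. Each line carried either an empty vector or a vector that overexpresses CRABP1, which binds retinoic acid in the cytoplasm. There were 4 groups with 1 library in each. Both arms of a line are transfected cells, and untransfected cells were not analysed here. The labels name neither the promoter of the vector nor whether a group is a clone or a pool, nor the time after transfection.

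D-type cyclins bind and activate CDK4 and CDK6, which phosphorylate the retinoblastoma protein and so release E2F factors that drive entry into S phase. INK4 proteins bind CDK4 and CDK6 directly, and those among the members are encoded by CDKN2A (p16INK4a), CDKN2B (p15INK4b) and CDKN2C (p18INK4c). CDKN1B (p27KIP1) instead binds cyclin-CDK complexes and is known mostly as an inhibitor of CDK2. CDKN2A also encodes p14ARF, an antagonist of MDM2, from a separate first exon. CDKN2A, CDKN2B and MTAP, which lie side by side, are often deleted together in tumours. The product of MTAP takes part in the recycling of methylthioadenosine to methionine.

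The promoters of 4 of these genes are shown because 3 lie side by side on 9p21 and CDKN2C is the member with the lowest ratio of the CRABP1 to the vector library. The letters are from RefSeq (GRCh38.p14), 5′ to 3′ on the gene's strand, and end just before the gene's first annotated base in GENCODE 29 or, for the p14ARF start of CDKN2A, before the RefSeq start. Capitals mark matches to the motifs that were searched. They are CDKN2B on the minus strand at chr9:22009364-22009555, the p14ARF start of CDKN2A on the minus strand at chr9:21995325-21995574, MTAP on the plus strand at chr9:21802386-21802542 and CDKN2C on the plus strand at chr1:50960495-50960744.
CDKN2B: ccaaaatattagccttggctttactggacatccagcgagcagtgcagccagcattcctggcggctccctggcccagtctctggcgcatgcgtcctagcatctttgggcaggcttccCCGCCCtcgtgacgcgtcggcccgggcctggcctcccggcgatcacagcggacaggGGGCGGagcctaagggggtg
CDKN2A, p14ARF start: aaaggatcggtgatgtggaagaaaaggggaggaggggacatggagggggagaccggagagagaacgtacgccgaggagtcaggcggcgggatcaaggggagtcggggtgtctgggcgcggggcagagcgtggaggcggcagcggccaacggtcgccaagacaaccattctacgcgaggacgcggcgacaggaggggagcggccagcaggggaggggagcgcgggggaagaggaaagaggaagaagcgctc
MTAP: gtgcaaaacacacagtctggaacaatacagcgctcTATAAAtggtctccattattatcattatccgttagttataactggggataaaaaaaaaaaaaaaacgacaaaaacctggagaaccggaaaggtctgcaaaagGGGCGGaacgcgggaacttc
CDKN2C: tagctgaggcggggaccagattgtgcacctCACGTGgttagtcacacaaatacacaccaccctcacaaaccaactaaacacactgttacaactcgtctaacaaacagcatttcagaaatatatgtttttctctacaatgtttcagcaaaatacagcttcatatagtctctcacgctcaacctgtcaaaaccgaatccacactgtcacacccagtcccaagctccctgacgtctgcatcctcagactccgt
The CDKN2B promoter holds a GC box (GGGCGG) on each strand. In MTAP the capitals are a TATA box (TATAAA) and a GC box, and in CDKN2C an E-box (CACGTG). The CDKN2C stretch lies before the first of several starts. Its windows at chr1:50968456-50968705 and chr1:50969995-50970244, not printed, hold 5 and 1 GC boxes, and the latter also an E-box. The p14ARF stretch holds no match to any motif searched. The other CDKN2A window, at chr9:21974858-21975107 and not printed, holds 1 GC box. The MTAP window holds another GC box in the bases that are not printed.

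The search covered 250 bases before each start and both strands. It reached 14 windows of 8 members, since CCND1 and CCND2 had no entry. A GC box was found in 10 of the 14 windows, against 42.6% of all 35116 windows. By gene it was found in 8 of 8, but a gene can have several windows, and no share per gene was taken over all genes. An E-box was found in 3 windows, 1 of CDK4 with 3 copies and 2 of CDKN2C, against 6.34% of all windows. The TATA box of MTAP was the only 1 of the 14, against 10.7%. None of the 14 windows matched TTTNNCGC, TGACTCA or TGACGTCA, which 5.92%, 4.20% and 1.65% of all windows hold. GC boxes may overlap each other. A match is a run of letters and no evidence of binding.

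Values are in TPM, normalised transcript abundances which correct reads for gene length and bring every library to a total of 1000000. Recovered read totals were 20331464 and 20309248 for FTC-133 with vector and CRABP1, and 19174557 and 19304250 for 8505C. CRABP1 itself was listed at 0 in both vector libraries and, with its own vector, at 385 TPM in FTC-133 and at 537 TPM in 8505C. Of 8 thyroid markers, which summed to between 141 and 187 TPM, 4 reached 1 TPM in FTC-133 and 2 in 8505C. The thyroid transcription factor PAX8 was at 100.1 and 143 TPM in FTC-133 and at most 0.240 TPM in 8505C, NKX2-1 at 44.7 and 17.7 TPM against 118 and 113 TPM, and HHEX at 8.45 to 27.8 TPM. SLC5A5, the iodide transporter, was at 0 in all 4 libraries. Markers of other cells summed to between 333 and 604 TPM for fibroblasts in FTC-133, mostly the collagens COL1A1 and COL1A2. In 8505C the fibroblast list summed to between 52.6 and 69.3 TPM, mostly COL3A1. The genes of this list thus differed in direction between the lines. COL3A1 was at 3.18 and 2.95 TPM in FTC-133 and at 50.0 and 66.0 TPM in 8505C. DCN was at 0.278 and 0.332 TPM against 1.21 and 2.45 TPM, and PDGFRA was at most at 0.212 TPM. The leukocyte list summed to at most 0.689 TPM in FTC-133 and to between 28.9 and 56.8 TPM in 8505C, nearly all CD14, with LYZ at 0 throughout. Endothelial markers summed to at most 5.75 TPM in FTC-133 and to between 100.3 and 108 TPM in 8505C, mostly CDH5. Epithelial markers summed to 171 and 169 TPM in FTC-133 with vector and CRABP1 and to 1604 and 1365 TPM in 8505C, mostly KRT8 and KRT18. EPCAM, CDH1 and KRT19 were instead lower in 8505C. The fibroblast sum was lower with CRABP1 in FTC-133 and higher with CRABP1 in 8505C. The leukocyte and epithelial sums were lower with CRABP1 in both lines. The part of these sums in the results below was not tested.

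**Figure D1:**
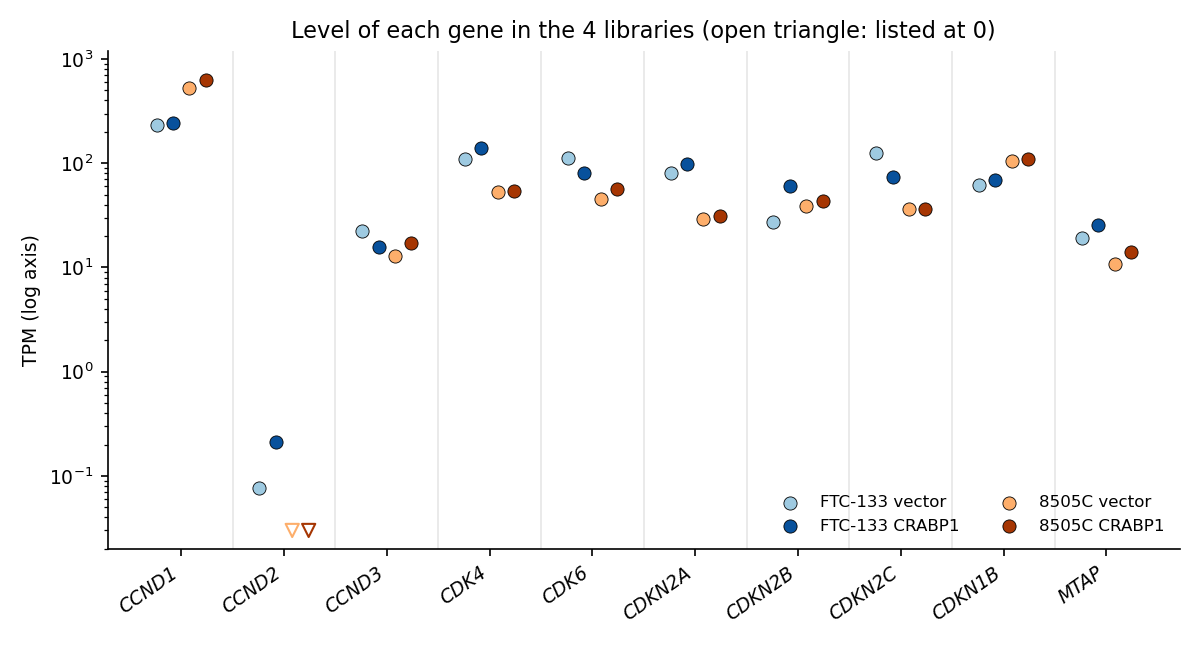
Level of each of the 10 genes in the 4 libraries, in TPM on a log axis, with 1 point per library and an open triangle for a value listed at 0. CCND1 is the highest member in all 4 libraries, between 231 and 632 TPM, and CCND2 is at or near 0 in each.

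CCND1 was the dominant D-type cyclin in both lines, and more so in 8505C. CCND1 (ENSG00000110092; GRCh38, chr11:69641087-69654474), which encodes cyclin D1, was at 231 TPM with vector and 242 with CRABP1 in FTC-133, and at 522 and 632 TPM in 8505C. Both 8505C libraries were thus higher than both FTC-133 libraries, with no overlap. In bulk RNA, a different share of cells with a gene on and a different amount per cell cannot be told apart. Among protein-coding genes it ranked 414 and 409 in the FTC-133 libraries, 175 and 137 in those of 8505C. The ratio of the CRABP1 to the vector library was 1.04 in FTC-133, with a 95% interval of 1.01 to 1.08, and 1.21 in 8505C, with an interval of 1.18 to 1.24. Here and below the interval (Clopper-Pearson, on recovered reads) covers counting error only and says nothing of the spread between cultures.

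CCND3 (ENSG00000112576; chr6:41934933-42050357), encoding cyclin D3, was far below CCND1 and differed in opposite directions in the lines. Its level was 22.4 TPM with vector and 15.7 with CRABP1 in FTC-133, and 12.8 and 17.0 TPM in 8505C. The levels of the lines overlapped. The CRABP1 library was 1.43-fold lower than the vector library in FTC-133, with an interval of 1.27 to 1.61. In 8505C the ratio was 1.33, with an interval of 1.16 to 1.52.

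CCND2 (ENSG00000118971; chr12:4273772-4305350), encoding cyclin D2, was close to undetected. FTC-133 gave 3 reads with vector and 8 with CRABP1, or 0.0769 and 0.211 TPM. In 8505C both libraries gave 0 reads, which allows up to 0.0824 and 0.0827 TPM. The ratio in FTC-133 was 2.75 with an interval of 0.660 to 16.1, so no difference was detectable at this depth, and CCND2 did not reach the mean of 1 TPM that the comparisons below required.

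In FTC-133 CDK4 was higher and CDK6 lower in the CRABP1 library. CDK4 (ENSG00000135446; chr12:57747727-57756013) was at 109.6 TPM with vector and 140.1 with CRABP1 in FTC-133, and at 53.0 and 53.6 TPM in 8505C. CDK6 (ENSG00000105810; chr7:92604921-92836594) was at 112 and 79.9 TPM in FTC-133, and at 45.7 and 56.3 TPM in 8505C. For both kinases each FTC-133 library was higher than each 8505C library. In FTC-133 the CDK4 ratio was 1.28 (1.20 to 1.36), while CDK6 was 1.40-fold lower with CRABP1 (1.35 to 1.45). In 8505C the CDK4 ratio was 1.01, and its interval of 0.919 to 1.11 held 1, while that of CDK6 was 1.23 (1.17 to 1.29). Of the CDK4 exon bases, 43.2% are shared with TSPAN31 on the opposite strand, at 14.0 to 18.8 TPM, and without a stated strand setting the reads of the genes cannot be told apart there.

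The order of the INK4 genes differed between the FTC-133 libraries, with CDKN2C first under vector and CDKN2A first under CRABP1. CDKN2B (ENSG00000147883; chr9:22002903-22009363) was at 27.5 TPM with vector and 60.9 with CRABP1 in FTC-133, and at 38.7 and 43.3 TPM in 8505C. Its FTC-133 values enclosed those of 8505C. The ratio was 2.22 in FTC-133 (2.01 to 2.44) and 1.12 in 8505C (1.02 to 1.23). CDKN2C (ENSG00000123080; chr1:50960745-50974633) was at 126 TPM with vector and 73.1 with CRABP1 in FTC-133, and at 36.0 and 36.6 TPM in 8505C. Each FTC-133 library was above each 8505C library. The CRABP1 library was 1.72-fold lower than the vector library in FTC-133 (1.60 to 1.84), whereas in 8505C the ratio was 1.02 with an interval, 0.907 to 1.14, that held 1.

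CDKN2A (ENSG00000147889; chr9:21967753-21995301) was at 80.2 TPM with vector and 97.8 with CRABP1 in FTC-133, and at 28.97 and 31.2 TPM in 8505C, so the locus was transcribed in both lines. The lines did not overlap. The ratio was 1.22 (1.15 to 1.30) in FTC-133 and 1.08 in 8505C, where the interval of 0.965 to 1.20 held 1. The gene-level value sums the transcripts of p16INK4a and p14ARF, which cannot be told apart in this table. Of its exon bases, 7.88% are shared with CDKN2B-AS1 on the opposite strand, at 2.87 to 3.85 TPM.

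CDKN1B (ENSG00000111276; chr12:12715058-12722371) was the only inhibitor among the members with both 8505C libraries above both FTC-133 libraries. It was at 62.4 TPM with vector and 68.9 with CRABP1 in FTC-133, and at 105 and 110.5 TPM in 8505C, with no overlap. The ratio was 1.11 (1.01 to 1.21) in FTC-133 and 1.05 in 8505C, with an interval of 0.979 to 1.13 that held 1.

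MTAP (ENSG00000099810; chr9:21802543-21937651) was higher with CRABP1 in both lines, with intervals that left out 1. Its level was 19.0 TPM with vector and 25.7 with CRABP1 in FTC-133, and 10.9 and 14.0 TPM in 8505C. FTC-133 was higher than 8505C without overlap. Other genes share 9.58% of its exon bases, 10.3% of those of CCND1 and 13.8% of those of CCND2, and under 1% for CCND3, CDK6, CDKN1B, CDKN2B and CDKN2C. The ratio was 1.35 (1.26 to 1.45) in FTC-133 and 1.29 (1.17 to 1.41) in 8505C.

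**Figure D2:**
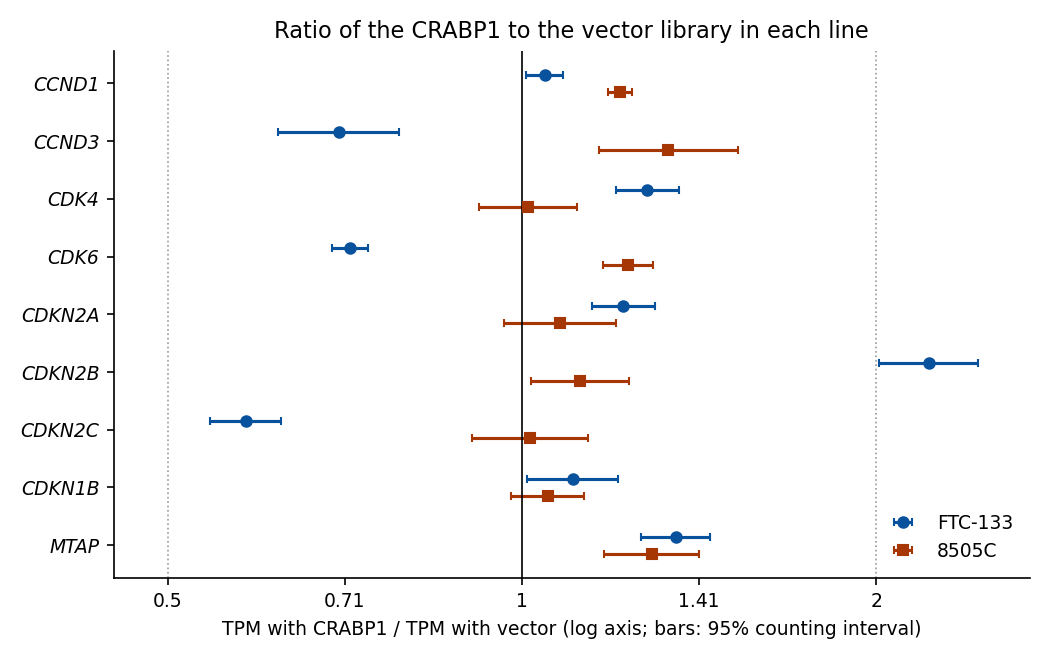
Ratio of the TPM with CRABP1 to that with vector in each line on a log axis, with bars for the 95% counting interval and lines at ratios of 1, 0.5 and 2. CDKN2B in FTC-133, at 2.22, is the only measured member past 2-fold, and CCND3 and CDK6 lie below 1 in FTC-133 and above 1 in 8505C.

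The members were then set against the other genes of each line. Differences on the log2 scale were taken of TPM plus 1, which understates changes of low genes. In FTC-133, 1 of the 9 measured members (CDKN2B, log2 difference 1.12) was past 2-fold higher and 0 were past 2-fold lower, against 6.02% and 4.92% of 19899 genes, or 10.9% either way and 3.4% either way among protein-coding genes that had 20 reads or more. The counting interval left out 1 for 6 members above and 3 below; the same held for 32.8% and 21.5% of those 13665 protein-coding genes. Over both directions that is 9 of 9 members against 54.3%. In 8505C, 0 of 9 members were past 2-fold, against 3.7% higher and 4.07% lower of 17561 genes, 7.77% either way, and 0.726% among the protein-coding genes with enough reads. There the interval left out 1 for 5 members above and 0 below, against 22.2% and 15.8% of 12818 genes, and it held 1 for 4. Over both directions that is 5 of 9 members against 38.0%. The interval narrows as reads rise, and the compared sets are unlike in depth. Measured members had 480 to 7469 reads per library in FTC-133 and 377 to 15481 in 8505C. The background genes needed only 20 reads in the pair. The median log2 difference of the members was 0.14 in FTC-133, where that of all genes was 0.06, and 0.16 in 8505C, where it was 0.02. In 8505C all 9 differences were above 0, from 0.02 for CDKN2C and CDK4 to 0.39 for CCND3, as were 54.7% of all genes. With libraries scaled by the median ratio of all genes, the sign of CDK4 in 8505C and of CCND1 in FTC-133 turned, to -0.0051 and -0.0016, and the intervals of CDKN1B and CCND1 in FTC-133 held 1.

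**Figure D3:**
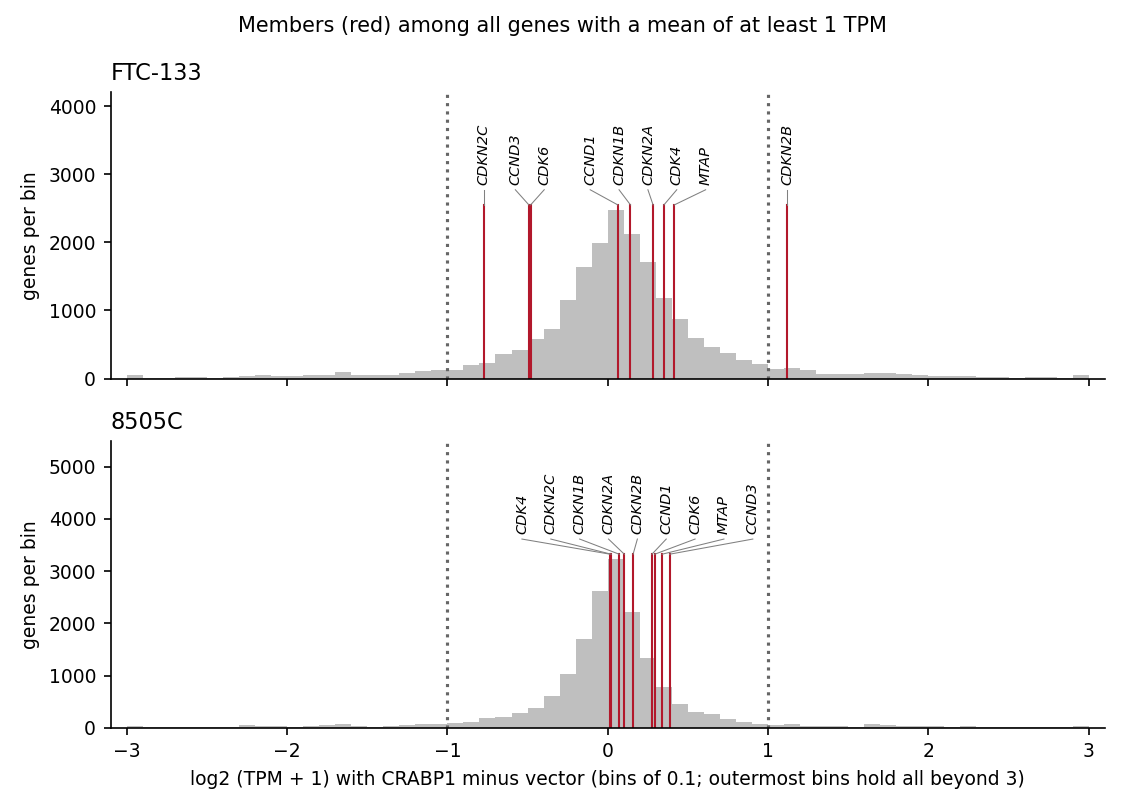
Log2 difference of TPM plus 1, CRABP1 minus vector, for all genes averaging 1 TPM or more, in bins of 0.1 (grey; genes per bin), with the 9 measured members in red and dotted lines at 2-fold, for FTC-133 (top) and 8505C (bottom). CDKN2B at 1.12 lies past the 2-fold line in FTC-133, and the members in 8505C lie between 0.02 and 0.39.

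Over both lines, limma was fitted with line and transfection as terms, so that the lines act as replicates. None of the 9 members passed an adjusted p of 0.05 for transfection (limma, Benjamini-Hochberg over 19513 genes), with adjusted p-values from 0.920 to 0.988. The test called 0.00512% of all genes, which is CRABP1 alone. At an unadjusted p under 0.05 there were 923 genes (4.73%) and 1 member, MTAP. Its log2 difference in limma was 0.38 ± 0.129 (SE), with 2 of 2 lines higher. The estimate for CDKN2B was 0.64 ± 0.271 and that for CDKN2C -0.38 ± 0.229, each with an adjusted p of 0.920 in limma. With 1 residual degree of freedom the fit takes most of its error from the other genes.

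The sums over the members' roles varied less than the single genes in FTC-133. The D-type cyclins summed to 254 and 258 TPM in FTC-133 with vector and CRABP1, and to 535 and 649 TPM in 8505C, and CCND1 supplied 91.1%, 93.8%, 97.6% and 97.4% of those sums. The ratio of CCND1 to CCND3 was 10.3 and 15.4 in the FTC-133 libraries, 40.9 and 37.2 in those of 8505C. CDK4 and CDK6 together reached 222 and 220.0 TPM in FTC-133 and 98.7 and 109.9 TPM in 8505C. In recovered reads, not divided by length, the kinase sums were 9360 and 7511 in FTC-133, so their near equality holds only per length. The CDK4 share of the TPM sum in FTC-133 was 49.5% with vector and 63.7% with CRABP1; in 8505C it was 53.7% and 48.8%.

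The summed INK4 level also differed little between the libraries of a line. CDKN2A, CDKN2B and CDKN2C added up to 233 and 232 TPM in FTC-133 and to 104 and 111 TPM in 8505C. CDKN2D, an INK4 gene that is not a member, is not in this sum. It was at 31.0 and 25.8 TPM in FTC-133 and at 15.6 and 17.2 TPM in 8505C. CDKN2C supplied 53.8% of the sum without CDKN2D in FTC-133 with vector and 31.5% with CRABP1. CDKN2B supplied 11.8% and 26.3%, and CDKN2A 34.4% and 42.2%. In 8505C the 3 shares differed by less than 2.0 percentage points between libraries. The ratio of the INK4 sum, without CDKN2D, to the sum of CDK4 and CDK6 was 1.05, 1.05, 1.05 and 1.01 in the 4 libraries. How close it lies to 1 depends on the genes summed. The D-type cyclins divided by the kinases, in contrast, gave 1.15 and 1.17 for FTC-133, but 5.42 and 5.91 for 8505C. These ratios are of RNA per length. In recovered reads the INK4 ratio was 0.509, 0.642, 0.552 and 0.503, so its near equality between libraries depends on that scale. The ratio of D-type cyclins to kinases in reads was 0.726, 0.886, 3.56 and 3.67, below 1 in FTC-133 where the per-length ratio was above 1.

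**Figure D4:**
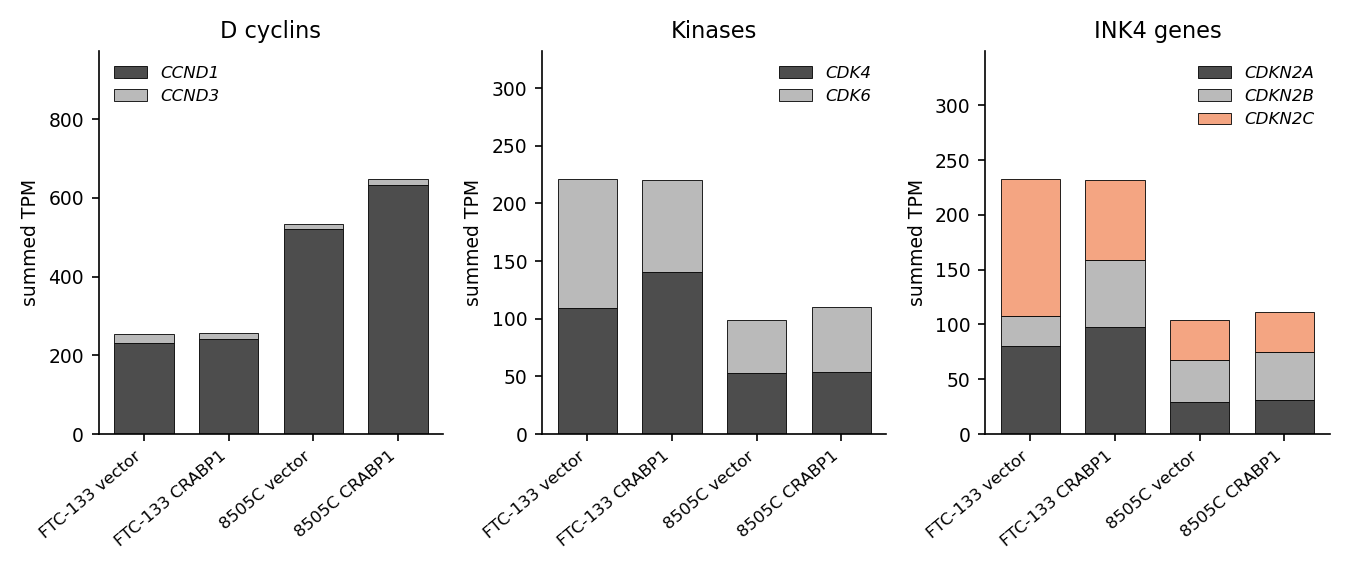
Summed TPM of the D-type cyclins, of CDK4 and CDK6, and of the INK4 genes CDKN2A, CDKN2B and CDKN2C in the 4 libraries. Stacked bars start from 0 with 1 colour per gene (CCND2, at most 0.211 TPM, is not drawn). In FTC-133 the kinase sum is 222 and 220.0 TPM and the INK4 sum 233 and 232 TPM while the shares within them differ.

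Between the lines, 6 of the 9 measured members differed in limma. CCND1 and CDKN1B were higher in 8505C, by 1.28 ± 0.109 and 0.71 ± 0.0953 on the log2 scale (SE, 2 libraries per line; limma adjusted p = 0.00805 and 0.0164). CDKN2A, CDKN2C, CDK4 and MTAP were lower in 8505C, with log2 differences of -1.53, -1.38, -1.20 and -0.79 (limma adjusted p = 0.00653, 0.0241, 0.0112 and 0.0234). CDK6 (-0.89, limma adjusted p = 0.0531), CCND3 (-0.33, 0.379) and CDKN2B (-0.0034, 0.993) did not pass. Of all 19513 genes, 13.0% were called higher and 22.2% lower in 8505C, 35.2% in all, of which 37.0% were higher, and the median log2 difference was -0.19. Relative to that median, CCND1 was at 1.46, CDKN1B at 0.90, CDKN2A at -1.34 and CDKN2B at 0.18. With median-ratio scaling the share higher was 48.8% and the same 6 members passed. An unadjusted p under 0.05 was reached by 7 members in limma and by 49.0% of genes. The 2 libraries of a line lay apart from those of the other for 7 of 9 members, against 73.4% of all genes.

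With 1 library left out, a line is represented by a single library, which is assumed to vary like those of the other line. These fits also drop the transfection term; with all 4 libraries and that term dropped, 7 members passed in limma. With a library left out, 3 members passed without the vector library of FTC-133 (CDK4, CDKN2A and CDKN2C) and 4 without its CRABP1 library (also CDKN1B). Without the 8505C vector library 0 passed in limma, with 4 at an unadjusted p under 0.05, and without the 8505C CRABP1 library 0 passed, with 6 unadjusted. In these last fits the log2 difference was -1.48 and -1.58 for CDKN2A and 1.41 and 1.14 for CCND1, beside -1.53 and 1.28 with all 4 libraries. An exact permutation test of 2 libraries against 2 could give no p below 0.333.

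Genes on both sides of the 9p21 members were detected in both lines. KLHL9, a substrate adaptor of a ubiquitin ligase, was at 34.9 to 50.9 TPM across the libraries. FOCAD was at 21.1 to 22.2 TPM and MLLT3, part of an elongation complex, at 4.72 to 6.64 TPM. HACD4, a fatty acid elongation enzyme gene, was at 6.68 and 7.94 TPM in FTC-133 and 1.46 and 0.882 TPM in 8505C. The interferon genes IFNW1 and IFNA5 were at 0 in all libraries, and IFNB1, IFNA1 and IFNA8 at no more than 1.06 TPM. IFNE was at 5.48 and 5.01 TPM in FTC-133 and at 10.1 and 9.09 TPM in 8505C, and it lies within MIR31HG, the host of a microRNA, at 10.4, 9.41, 18.5 and 20.9 TPM.

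CDKN2A-DT, between MTAP and CDKN2A, was at 0.670 to 1.91 TPM. On the other side of CDKN2A, the antisense RNA CDKN2B-AS1 was at 3.19 and 3.85 TPM in FTC-133 and 2.87 and 2.90 TPM in 8505C. DMRTA1 was at 6.51 and 8.24 TPM in FTC-133 and at 1.09 and 1.34 TPM in 8505C. ELAVL2 was at no more than 0.406 TPM. TUSC1 and IFT74 were higher in 8505C, at 14.1 and 13.6 TPM against 2.77 and 3.32 for TUSC1 and at 17.1 and 17.9 against 3.88 and 5.68 TPM for IFT74. PLAA was at 52.1 and 67.5 TPM in FTC-133 and 27.7 and 29.9 TPM in 8505C, and CAAP1 at 31.2, 39.5, 25.9 and 34.8 TPM. In FTC-133, 10 of 13 measured neighbours were higher with CRABP1, as were 57.8% of all genes. The interval left out 1 for 6 above and 0 below, against 32.8% and 21.5% of protein-coding genes. In 8505C 7 of 13 were higher, as were 54.7% of all genes, and the interval left out 1 for 2 above and 2 below, against 22.2% and 15.8%. Between lines, limma called 4 of the 13 neighbours higher in 8505C and 3 lower, against 13.0% and 22.2% of all genes.

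**Figure D5:**
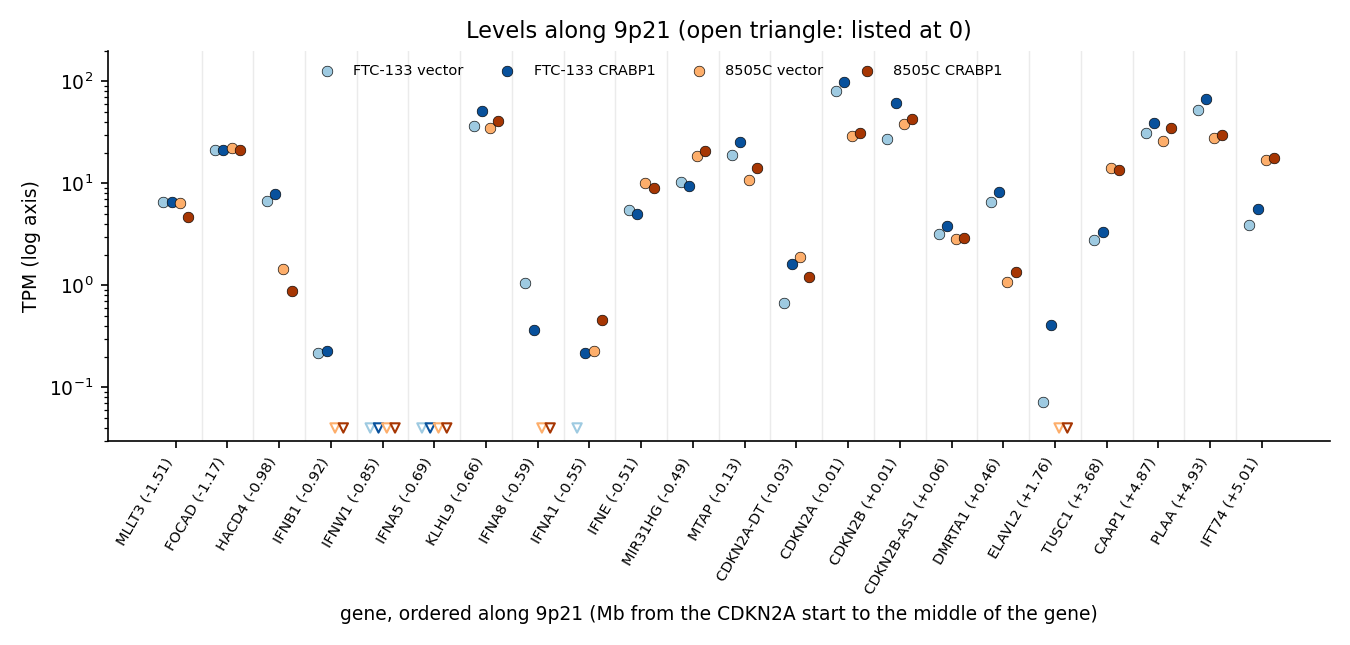
Levels in TPM on a log axis of the genes along 9p21, ordered by distance in Mb from the CDKN2A start to the middle of each gene, with 1 point per library and an open triangle for a value listed at 0. CDKN2A is the highest gene of the region in FTC-133 (80.2 and 97.8 TPM), and the interferon genes other than IFNE lie near 0.

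The partners of the members were described from lists. Their 65 genes measured over both lines gave 0 that passed for transfection (limma, adjusted p from 0.920 to 0.995) and 3 with an unadjusted p under 0.05, namely CAAP1, E2F2 and RBL1. Among list genes that averaged 1 TPM or more in the line compared, 0 were past 2-fold. CDKN1C (p57), singled out after its values were seen, averaged just under that minimum in FTC-133, with 4 reads with vector and 22 with CRABP1, a log2 difference of 1.05 and a ratio of 5.67 (1.93 to 22.7). The list of the RB family and E2F factors, the substrates and effectors of CDK4 and CDK6, had 12 of 13 members above 0 in 8505C, as were 54.7% of all genes. There the interval left out 1 for 10 above and 1 below, and the 3 largest log2 differences were 0.82 for E2F2, 0.54 for E2F1 and 0.42 for E2F8. In FTC-133 it left out 1 for 6 above and 3 below, with 0.46 for E2F2 and 0.33 for RBL1. For this list and those below, the interval left out 1 for 32.8% of protein-coding genes above and 21.5% below in FTC-133. In 8505C these shares were 22.2% and 15.8%. They include genes with as few as 20 reads in the pair, whose intervals are wide.

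Of the 5 genes of cyclins E and A with CDK2 and CDC25A, which act after the D-type cyclins, the interval left out 1 for 2 above and 1 below in FTC-133 and for 2 above and 0 below in 8505C. CDC25A, a phosphatase that activates CDK2, had a log2 difference of 0.45 in 8505C and -0.21 in FTC-133. Among other CDK inhibitors, the interval left out 1 for 1 of 2 in FTC-133, CDKN1A (p21), with a ratio of 1.10, and for 0 of 3 in 8505C. For the 8 genes of CDK activation and turnover the counts were 4 above and 1 below in FTC-133 and 2 above and 0 below in 8505C. FBXW7, a ubiquitin ligase subunit that targets cyclin E, was at -0.31 in FTC-133.

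MDM2, the ubiquitin ligase that p14ARF binds, had a log2 difference of -0.23 in FTC-133 and 0.06 in 8505C. Of 10 regulators of the INK4 locus the interval left out 1 for 1 above and 5 below in FTC-133, against 32.8% and 21.5% of protein-coding genes. In that line ID1, an inhibitor of helix-loop-helix factors, was at -0.54 and ETS1 at 0.36. In 8505C it left out 1 for 3 above and 1 below, with EZH2, the Polycomb methyltransferase, at 0.62 and KDM6B, which removes the same mark, at -0.35. Of 10 genes of methionine salvage and polyamines, the pathway of MTAP, the counts were 6 above and 2 below in FTC-133 and 4 above and 1 below in 8505C. SMS, spermine synthase, was the largest, at -0.60 in FTC-133.

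The genes with the most similar pattern were found for the 3 members with the widest range over the 4 libraries, by the Euclidean distance of centred log2 values among 12913 protein-coding genes. For CDKN2C they were GLIS1 (distance 0.0836), QRFP (0.105) and PDZD7 (0.108). These are low genes, at most at 3.19, 2.88 and 8.12 TPM, and GLIS1 and QRFP fell to 0.253 and 0.237 TPM in 8505C. At such levels the pseudocount of 1 shrinks log2 differences, so the likeness to CDKN2C does not hold for plain TPM ratios. CDKN2A was followed by ABHD5 (0.0410), BET1 (0.0450) and CDK5 (0.0451), and CCND1 by GINS4 (0.0834), CCNE2 (0.0962) and ADAMTS16 (0.1004). Each pattern rests on 4 libraries, and the likeness is a description.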

How the data were processed

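RNA-seq libraries of 4 groups were used. The authors deposited 1 table of TPM values for 58884 Ensembl genes; the tools named in the submitters' processing notes are featureCounts 2.0.0, Trimmomatic 0.38 and FastQC, with GRCh38 as the build. The sources used here give no aligner, annotation or strand setting. Symbols matched 58472 identifiers and GENCODE 29 held 58611. TPM times exon length fell on whole multiples of 1 step for 90.5% to 91.6% of values of up to 50 reads, within 0.02 of a read, which gave the recovered reads. For CDKN1B, CDKN2B, CDKN2C, MTAP and CDK4 the reads were not whole and were rounded. Genes had to average 1 TPM or more over the compared libraries, and log2 values used a pseudocount of 1. With 1 library per group, no test was made within a line. Over both lines limma 3.58.1 (R 4.3.3) was fitted with a mean-variance trend and 1 residual degree of freedom. Its p-values were two-sided and adjusted over all genes by Benjamini-Hochberg. They measure only the spread between these libraries, which the labels do not call separate cultures. Simulated data were fitted for transfection alone, with genes changed alike in both lines, and not for the comparison of the lines. Python 3.11.15, pandas 2.3.3, NumPy 2.4.6, SciPy 1.17.1 and matplotlib 3.10.9 were used. The members and lists were chosen with earlier results of these data known. All 10 members are named; from the 8 lists, at most the 3 genes with the largest absolute log2 difference per line, and 9p21 neighbours with their levels. Genes named for an unadjusted p under 0.05 were singled out after their values were seen. Values of some list and marker genes are not reported here.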

Additional observations from a re-analysis of the deposited data

Results flagged for a closer look

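For 2 members the CRABP1 library lay below the vector library in FTC-133 and above it in 8505C, with counting intervals that leave out 1 in both lines. CCND3, cyclin D3, had a ratio of 0.698 (0.621 to 0.785) in FTC-133 and 1.33 (1.16 to 1.52) in 8505C. CDK6 had a ratio of 0.714 (0.689 to 0.740) in FTC-133 and 1.23 (1.17 to 1.29) in 8505C. The difference between the lines was not tested, since each group holds 1 library and an interaction term leaves no residual degree of freedom.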

How the results depend on the processing

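In FTC-133, 1198 genes were past 2-fold higher and 979 lower; these were 354 and 237 at a mean of at least 5 TPM, 2598 and 1928 at 1.5-fold, where 1 member (CDKN2C) was lower, and 274 and 191 among protein-coding genes that had 20 reads or more. In 8505C 649 and 715 became 97 and 121 at 5 TPM, 1117 and 1162 without a filter, 1297 and 1341 at 1.5-fold, and 29 and 64 among protein-coding genes, which moved the higher share from 47.6% to 31.2%. For transfection over both lines limma called 1 gene, and 0 with a pseudocount of 0.1, without a filter, with median-ratio scaling, without mitochondrially encoded genes, without the trend and with no replicate block; these left 158 (no replicate block) to 1146 (no filter) genes at an unadjusted p under 0.05 in limma. Between the lines 6877 genes and 6 members passed; without a filter 1182 genes and 1 member (CDKN2A), and without the trend 3 members. No replicate block meant cell line left out of the model for transfection above, and transfection left out for the comparison of the lines. Between the lines it gave 7895 genes and 7 members, CDK6 added. Leaving out each library gave 0 to 3242 genes and 0 to 4 members in limma, with 6783 and 6815 genes at an unadjusted p under 0.05 for the 8505C libraries, where 0 passed; this and the protein-coding restriction were added after seeing the data. The CDKN2B difference between lines turned to 0.17 with median-ratio scaling and ranged from -0.56 to 0.56 with a library left out, with 0.08 without the 8505C vector library. The causes were not tested.

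In recovered reads instead of TPM, CCND1 made up 89.5%, 92.7%, 97.1% and 96.9% of the D-type cyclins in the 4 libraries, CDK4 20.2%, 31.2%, 23.0% and 19.8% of the kinases, and the INK4 ratio was 0.509, 0.642, 0.552 and 0.503. The depth limits CCND2, which had 8 reads at most, and no replicate measures culture error within a line.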
